A study of Mus musculus with 12 samples.

Results

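The comparison described here set 3 mouse livers in which the active mutant YAPS127A had been induced for 4 weeks (YAP 4 weeks, livers 1, 2 and 3) against 2 livers of the same genotype without induction (YAP controls 1 and 2). These 5 were chosen by their sample titles out of the 12 RNA-seq libraries of the series, and all genes were compared. Every mouse of this model, control or induced, carried Col-TRE-YAPS127A and Rosa26-LSL-rtTA. Per the series' design text, transgenic mice received AAV-TBG-Cre at 8 to 10 weeks of age; the TBG promoter restricts Cre, and with it the doxycycline-dependent activator rtTA, to hepatocytes. Doxycycline was then given, so that the transgene was directed to hepatocytes. The labels say of the controls only that YAPS127A was not induced, so whether they received the virus or doxycycline is not stated. Neither the sex of the mice nor their age at collection is given. The RNA is total liver RNA although the cell type is labelled hepatocytes, and each library is taken as 1 liver. Nothing in the labels says whether mice were littermates. Beside these 5, 2 livers of the same genotype with 2 weeks of induction are used where they bear on a result.

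YAP is a transcriptional coactivator at the end of the Hippo pathway. The kinases MST1 and MST2 (Stk4 and Stk3) activate LATS1 and LATS2, which phosphorylate YAP and its paralogue TAZ (Wwtr1) and so keep them in the cytoplasm. Unphosphorylated YAP enters the nucleus and binds DNA through the TEAD factors; the S127A change removes a main LATS site. In mouse liver, active YAP is known for reversible overgrowth of the organ, for hepatocyte proliferation and for the appearance of biliary and progenitor genes in hepatocytes.

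Expression levels below are normalised read counts (CPM, reads as a share of the library, scaled by TMM, edgeR's trimmed mean of M-values) and are given library by library. Log2 fold changes are 4 weeks against controls ± SE, and adjusted p-values are Benjamini-Hochberg values of edgeR's quasi-likelihood test over all tested genes. "Called" means an adjusted p under 0.05. The 5 libraries held between 12710543 and 14105579 counts. Several library features moved with the groups. Mitochondrially encoded genes took 19.3 and 19.6% of counts in the controls and 11.7, 10.0 and 7.67% in livers 1, 2 and 3, and TMM factors were 0.743 and 0.742 against 1.12, 1.25 and 1.35. Both controls had a male pattern of Xist and Y-linked genes and all 3 induced livers a female one. Induction and this pattern cannot be told apart within the 5 libraries. Liver 1 stood apart from livers 2 and 3: the correlation of log2 CPM across genes was 0.975 between livers 2 and 3, 0.928 and 0.941 between liver 1 and each of them, and 0.962 between the controls. With the 2 livers at 2 weeks it was 0.955 and 0.963 for liver 1. It was 0.933 and 0.941 for liver 2, and 0.935 and 0.95 for liver 3.

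Of 17964 tested genes, 6073 (33.8%) were called: 3253 (18.1%) were higher and 2820 (15.7%) lower after 4 weeks. Of these calls, 4336 (24.1% of tested genes) were at least 2-fold, 2693 of them upward. The libraries of the groups did not overlap for 10759 genes (59.9%). The shares of 18.1% higher and 15.7% lower are the background for the calls of every gene list below. The median log2 fold change of all tested genes was 0.18. Scaling to total counts moves the median log2 fold change up by 0.735 and gave 7863 genes higher and 897 lower, so the balance of directions differs between the scalings. Without control 1 there were 3340 calls and without control 2 there were 3324, each of which leaves a single control assumed to vary like the other groups. Since these are bulk libraries, fewer cells of a type and less RNA per cell cannot be told apart in any value below.

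The largest rises went to genes that were at or near 0 in both controls. Zfp185 (chromosome X, 72987339 to 73031543 on GRCm38), a LIM-domain protein bound to actin, had no count in either control and stood at 32.3, 9.81 and 24.6 CPM in livers 1, 2 and 3, at least 73.1-fold higher against a floor of 3 counts per library (adjusted p = 6.35e-05). Bex1 was at 0 in both controls and at 11.8, 12.5 and 28.8 CPM in the induced livers, at least 58.1-fold higher (adjusted p = 0.00068). Sdk1, a synaptic adhesion molecule, was at 0 against 14.9, 15.0 and 12.6 CPM, at least 46.6-fold higher with hardly any spread between livers (adjusted p = 6.07e-05). Tmem130, Sprr1a, Mex3a, Cfap44 and the neutrophil granule gene Ngp also had no control counts, with bounds between at least 34.0-fold for Cfap44 and at least 47.2-fold for Tmem130. Psca, a surface antigen of epithelial progenitors, had 1 count in the controls together and 393, 15.5 and 67.5 CPM in the livers, a ratio of summed counts of 2963 with a counting interval from 532 to 117063. This interval covers counting error only. These genes were chosen among those whose groups do not overlap, so their separation from the controls is no finding. The livers themselves differed widely for Psca. The call of Psca was lost without control 2 (adjusted p = 0.0513) and that of Ngp without control 1 (0.108), control 2 (0.105), liver 1 (0.0558) or liver 3 (0.058).

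The 10 largest falls were 9 members of the major urinary protein family (Mup-ps3, Mup2, Mup11, Mup7, Mup18, Mup17, Mup12, Mup1 and Mup14) and Elovl3. Genes of this family encode pheromone carriers secreted by the male liver, but Mup-ps3 is by its symbol a pseudogene. Mup7 fell from 1593 and 1733 CPM in the controls to 0.445, 0 and 0.501 CPM, and Mup17 from 1422 and 963 CPM to 0.508, 0 and 0.445 CPM. Mup genes on chromosome 4 are near-identical copies that share reads, so the split between copies is uncertain. Elovl3 (chromosome 19, 46131897 to 46135694), an elongase of very long fatty acids with male-biased expression, fell from 87.1 and 75.4 CPM to 0, 0 and 0.0556 CPM (adjusted p = 4.84e-06). These genes too were chosen by the size of the fall among called genes whose groups do not overlap. Low values in all 3 induced livers are therefore no finding.

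YAP/TAZ target genes were taken as a list of 23 genes, of which 22 were tested. Of these, 14 were called higher, none lower and 8 not called, beside 18.1% and 15.7% of all tested genes, and the list's median log2 fold change was 1.57 against 0.18 for all. The number called was 9 without control 1 and 8 without control 2. To show the sequences through which TEAD factors can act, promoter windows from RefSeq on GRCm38.p6 (250 bases before to 50 after the start) were searched for GGAATG, the core of the TEAD motif, on both strands. Of the 23 genes, 16 had a window and 8 of them held the motif: Ajuba, Amotl2, Ankrd1, Axl, Crim1, Cyr61 (Ccn1 in RefSeq), Lats2 and Ptpn14. Among all 27025 genes with a window 16.6% held it, among tested genes 15.1%, among genes called higher 16.9% and among genes called lower 13.8%. All 8 holders on the list were called higher, as were Myof and Tgfb2 among the 8 without it. Foxf2, also without it, was not tested. This is a description of letters in a short window and was not tested. Start sites of the windows are those of RefSeq, whereas the gene spans given in the text are from GENCODE. The 2 sources place the start differently for Ajuba and Ankrd1. Both printed Ankrd1 sites therefore lie before the RefSeq start but within the GENCODE span of the gene. The stretches before the start site of 3 called targets and the surroundings of both matches of Ankrd1 are printed 5′ to 3′ on the gene's strand, with the match in capitals (CATTCC where it lies on the other strand).
Ptpn14, chr1:189728018-189728267, plus strand: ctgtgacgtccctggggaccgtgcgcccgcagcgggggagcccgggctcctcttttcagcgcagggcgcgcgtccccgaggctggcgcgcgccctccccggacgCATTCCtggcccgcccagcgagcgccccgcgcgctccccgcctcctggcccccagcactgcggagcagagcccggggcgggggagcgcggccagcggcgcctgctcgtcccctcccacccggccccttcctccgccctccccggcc
Cyr61, chr3:145649986-145650235, minus strand: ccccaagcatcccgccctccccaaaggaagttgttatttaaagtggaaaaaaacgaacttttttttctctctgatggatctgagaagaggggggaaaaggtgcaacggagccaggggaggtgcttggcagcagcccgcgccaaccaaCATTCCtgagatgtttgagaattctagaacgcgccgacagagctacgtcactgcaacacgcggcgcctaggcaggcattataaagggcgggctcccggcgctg
Ajuba, chr14:54577662-54577911, minus strand: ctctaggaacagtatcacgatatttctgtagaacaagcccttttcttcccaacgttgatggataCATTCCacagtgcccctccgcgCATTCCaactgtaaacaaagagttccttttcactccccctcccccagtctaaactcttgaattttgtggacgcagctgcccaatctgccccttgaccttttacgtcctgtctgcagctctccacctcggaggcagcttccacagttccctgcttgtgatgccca
Ankrd1, chr19:36120037-36120066, minus strand: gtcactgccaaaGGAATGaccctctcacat
Ankrd1, chr19:36119950-36119979, minus strand: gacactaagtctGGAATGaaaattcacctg

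The tyrosine phosphatase gene Ptpn14 (chromosome 1, 189728268 to 189876695), whose product restrains YAP, had the smallest p of the list. It was at 4.44 and 5.09 CPM in the controls and at 79.1, 82.7 and 108 CPM in livers 1, 2 and 3 (log2 fold change 4.24 ± 0.29, adjusted p = 1.45e-05). The 3 livers were close to each other and far above the controls. Ajuba (chromosome 14, 54567472 to 54577558), a LIM protein that holds LATS kinases inactive at junctions, rose from 5.51 and 5.30 CPM to 93.5, 51.9 and 92.0 CPM (3.87 ± 0.34, adjusted p = 4.49e-05). Tgfb2, a ligand of the TGF-beta family, rose from 1.84 and 1.80 CPM to 22.6, 41.7 and 50.8 CPM (4.39 ± 0.42, adjusted p = 6.47e-05). Myof, a membrane repair protein, rose from 7.44 and 5.30 CPM to 65.4, 119.5 and 168 CPM (4.20 ± 0.46, adjusted p = 0.000177). In Tgfb2 and Myof liver 1 was the lowest of the induced livers, yet still above both controls.

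Other targets were highest in liver 1 and lowest in liver 2. Ankrd1 (chromosome 19, 36111961 to 36120099), an ankyrin-repeat cofactor widely used as a YAP reporter gene, was at 0.29 and 0.637 CPM in the controls and at 235.5, 40.0 and 126 CPM in livers 1, 2 and 3 (8.17 ± 1.24, adjusted p = 0.00145). Ctgf, the matrix protein CCN2, was at 14.9 and 16.8 CPM against 414, 17.7 and 70.4 CPM (3.40 ± 1.09, adjusted p = 0.0394). Liver 2 thus lay just above the controls for Ctgf, and the call was lost without control 1 (0.175), control 2 (0.163) or liver 1 (0.0632). Cyr61 went from 35.8 and 50.1 CPM to 144, 74.0 and 135.5 CPM (1.46 ± 0.34, adjusted p = 0.00816), a call lost without control 1 (0.0811). Amotl2, an angiomotin that sequesters YAP, went from 45.1 and 37.7 CPM to 505, 87.1 and 234 CPM (2.73 ± 0.63, adjusted p = 0.0095), lost without control 1 (0.0602) or control 2 (0.0769). The receptor kinase gene Axl rose more evenly, from 21.9 and 20.2 CPM to 69.8, 59.7 and 51.9 CPM (1.52 ± 0.20, adjusted p = 0.000299). Among the 8 listed targets that were not called, Igfbp3 (-0.53 ± 0.32), Rbms3 (-0.44 ± 0.48) and Dock5 (-0.40 ± 0.15) had log2 fold changes below 0, all of which turned positive with total-count scaling (0.21, 0.33 and 0.35), and F3, Nt5e, Nuak2, Ccdc80 and Gadd45a lay between 0.10 and 1.61.

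**Figure D1:**
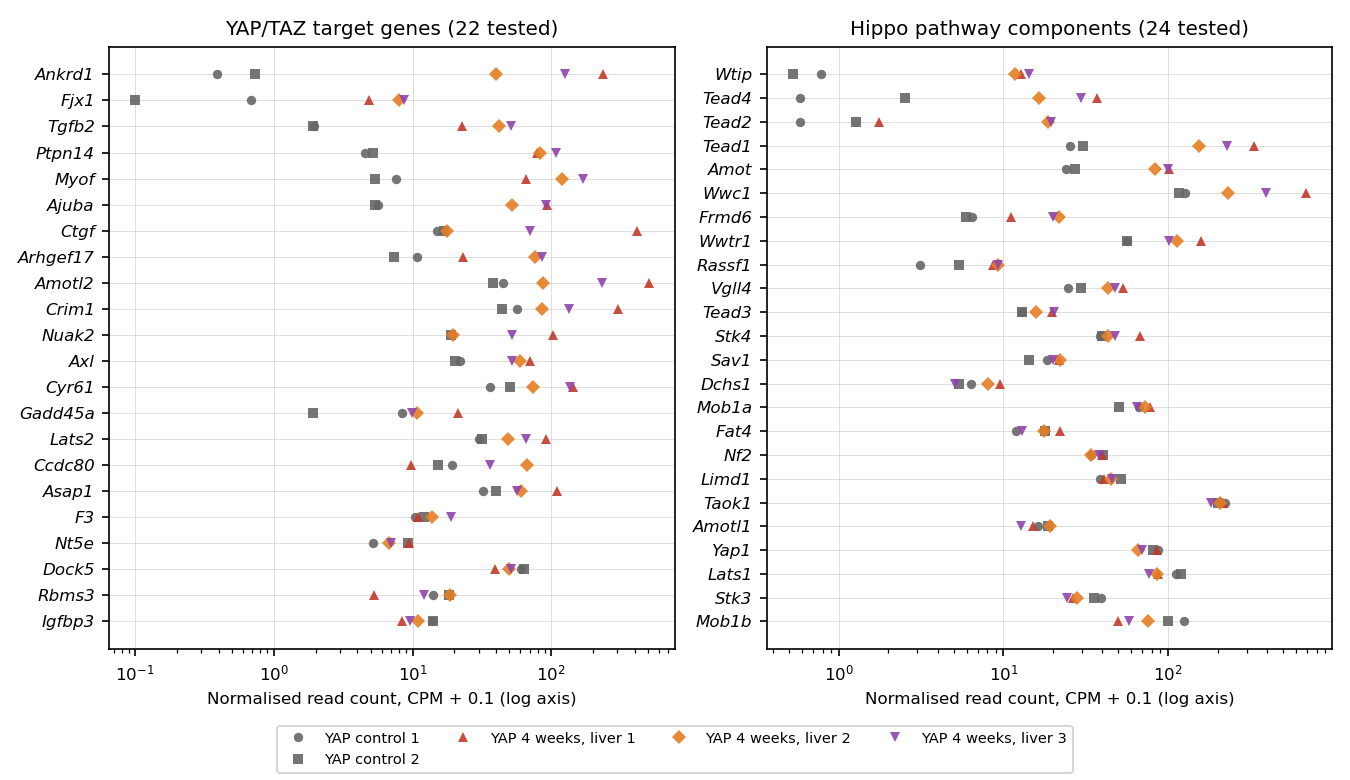
Normalised read counts (CPM + 0.1, log axis) of the 22 tested YAP/TAZ target genes (left) and the 24 Hippo pathway components (right), 1 symbol per library, genes ordered by log2 fold change. Induced livers lie far above both controls for Ankrd1, Ptpn14 and Tead4, whereas liver 2 lies next to the controls for Ctgf and Nuak2, and Yap1 overlaps between groups.

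Of 24 Hippo pathway components, 10 (41.7%) were called higher and 3 (12.5%) lower, beside 18.1% and 15.7% of all tested genes. The median log2 fold change of the components was 0.40. Without control 1, 5 were higher and none lower, and 1 was lower without control 2 or without liver 3. Total-count scaling gave 20 higher and none lower. The transgene itself could not be followed by the symbol Yap1 (chromosome 9, 7931999 to 8004596): it was at 86.5 and 81.2 CPM in the controls and at 85.8, 65.6 and 69.0 CPM in the induced livers (-0.19 ± 0.16, adjusted p = 0.372), with the groups overlapping. With total-count scaling the log2 fold change was 0.54 (adjusted p = 0.0338). The species of the YAPS127A sequence is not given, and reads from a sequence unlike the mouse gene need not be counted there. The 3 libraries labelled as induced therefore have no check from the transgene, and the targets above are the nearest readout.

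The DNA-binding partners of YAP changed unequally. Tead1 (chromosome 7, 112679318 to 112906807) rose from 25.4 and 30.3 CPM to 332, 154 and 229 CPM (3.10 ± 0.32, adjusted p = 8.7e-05). Tead4 rose from 0.483 and 2.44 CPM to 36.9, 16.4 and 29.5 CPM (4.25 ± 0.63, adjusted p = 0.000784). Both were highest in liver 1 with no overlap between groups. Tead2 was at 0.483 and 1.17 CPM in the controls and at 1.65, 18.5 and 19.5 CPM in the livers (4.00 ± 1.09, adjusted p = 0.0186), so it was high in livers 2 and 3 only, and the call was lost without control 1 (0.133) or control 2 (0.0808). Tead3 did not pass (0.52 ± 0.19, adjusted p = 0.053). The paralogue Wwtr1 (TAZ) went from 56.1 and 56.7 CPM to 158, 113 and 101 CPM (1.13 ± 0.25, adjusted p = 0.00614), a call lost without control 1 (0.0503).

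Among the regulators of YAP and LATS, Amot, an angiomotin, rose from 23.8 and 27.2 CPM to 100.7, 83.7 and 100.3 CPM (1.90 ± 0.26, adjusted p = 0.000462), and Wtip, a LIM protein of the Ajuba family, which restrains LATS, from 0.676 and 0.424 CPM to 12.6, 11.6 and 14.3 CPM (4.51 ± 0.73, adjusted p = 0.00104). Wwc1 (KIBRA), a scaffold that activates LATS, was at 127 and 116 CPM against 692, 231 and 393 CPM (1.85 ± 0.41, adjusted p = 0.00596), lost without control 2 (0.0572). Lats2, itself a YAP target, was at 30.1 and 31.6 CPM against 91.3, 48.9 and 65.7 CPM (1.15 ± 0.27, adjusted p = 0.00793), lost without control 1 (0.0621) or control 2 (0.0535). In contrast the kinase genes Lats1 (-0.48 ± 0.13, adjusted p = 0.0164) and Stk3 (-0.51 ± 0.16, adjusted p = 0.0304) and the LATS activator Mob1b (-0.89 ± 0.19, adjusted p = 0.00508) were called lower. With total-count scaling Lats1 and Stk3 turned to 0.25 and 0.23, Mob1b lost its call without control 1 (0.0638), and Lats1 and Stk3 lost theirs without control 1, control 2 or liver 3 (0.0589 to 0.174). Nf2, Taok1, Limd1 and Sav1 were not called.

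Cell division genes were higher in every induced liver, most of all in liver 1. All 26 mitosis genes lay above both controls in all 3 livers, where 33.5% of tested genes did, and 24 were called higher, with a median log2 fold change of 3.92. Their summed level was 38.7 and 24.7 CPM in the controls and 938, 199 and 314 CPM in livers 1, 2 and 3. The count called was 8 without control 1 and 5 without control 2. Mki67 (chromosome 7, 135689784 to 135716361), a marker of cycling cells, was at 9.95 and 6.15 CPM against 345, 68.3 and 102 CPM (4.41 ± 0.94, adjusted p = 0.00673), a call lost without control 2 (0.0662). Foxm1, which drives G2 and M phase transcription, rose from 1.74 and 1.06 CPM to 23.7, 7.34 and 12.9 CPM (3.37 ± 0.66, adjusted p = 0.00349). The spindle checkpoint kinase gene Bub1b rose from 0.58 and 0.955 CPM to 12.1, 4.82 and 6.84 CPM (3.36 ± 0.59, adjusted p = 0.00173). Aurka (1.26 ± 0.56) and Kif11 (2.71 ± 0.96) were not called. Liver 1 was the highest and liver 2 the lowest of the induced livers for Mki67, Foxm1 and Bub1b.

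DNA replication genes moved less. Of 30 tested, 13 were called higher, 1 lower and 16 not called, with a median of 1.82, and 4 were higher without either control. The median was 1.09 without liver 1, and the per-liver medians were 2.15, 0.49 and 1.28. Total-count scaling called 24 higher. Lig1, which joins Okazaki fragments, rose from 0.966 and 3.29 CPM to 28.4, 21.2 and 29.4 CPM (3.64 ± 0.56, adjusted p = 0.00107), and Tk1, thymidine kinase, from 9.76 and 10.5 CPM to 55.0, 24.1 and 38.1 CPM (1.95 ± 0.35, adjusted p = 0.00224). Orc1, a subunit of the origin recognition complex, had no control counts and 2.16, 1.84 and 2.61 CPM in the livers. Of the Mcm helicase genes, Mcm6 went from 8.89 and 7.96 CPM to 53.9, 27.4 and 42.9 CPM (2.29 ± 0.52, adjusted p = 0.00816), lost without control 1 (0.0574) or control 2 (0.0686). The exception was Mcm10 (chromosome 2, 4989714 to 5012791), an initiation factor, which fell from 81.6 and 78.1 CPM to 8.39, 4.13 and 4.62 CPM (-3.81 ± 0.38, adjusted p = 9.74e-05). All 3 induced livers lay far below both controls. Without liver 1 a second gene of the list was called lower.

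The list of 19 p53 target genes had a median log2 fold change of 0.93. Of these genes, 10 (52.6%) were called higher and 1 (5.3%) lower, beside 18.1% and 15.7% of all tested genes. The count was 5 without control 1 and 6 without control 2, and 18 with total-count scaling. Cdkn1a (chromosome 17, 29090976 to 29100727), the inhibitor p21 of cyclin-dependent kinases, was at 0.87 and 0.849 CPM in the controls and at 57.4, 37.5 and 48.4 CPM in the livers (5.78 ± 0.44, adjusted p = 2.81e-05). The livers differed little and none came near the controls. Phlda3, an inhibitor of AKT, rose from 0.58 and 0.743 CPM to 25.6, 16.6 and 15.6 CPM (4.85 ± 0.41, adjusted p = 4.06e-05). Plk2 rose from 10.4 and 13.5 CPM to 59.8, 40.2 and 42.8 CPM (1.99 ± 0.30, adjusted p = 0.000735), and the death receptor gene Tnfrsf10b from 0.29 and 0.212 CPM to 5.46, 8.03 and 6.28 CPM (4.66 ± 0.72, adjusted p = 0.000849). Plk3 went the other way, from 75.0 and 90.3 CPM to 14.8, 26.0 and 22.7 CPM (-1.96 ± 0.36, adjusted p = 0.00269). Mdm2 (0.45 ± 0.27) and Ccng1 (0.41 ± 0.35), both classical p53 targets, were not called.

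Biliary and progenitor genes rose, but unequally across livers. Of 20 tested, 12 were called higher and none lower, with a median of 3.36 (2.99 with members at 0 in a group held at their bound), and 7 were called without either control. The median log2 ratio to the control mean was 0.35 in liver 1, 2.92 in liver 2 and 3.02 in liver 3. Genes that also serve as early progenitor factors were high in all 3: Sox9 (chromosome 11, 112782224 to 112787760), the ductal transcription factor, was at 30.5 and 30.0 CPM against 84.8, 215 and 289 CPM (2.70 ± 0.52, adjusted p = 0.00384). Sox4 rose from 1.84 and 1.59 CPM to 39.5, 124 and 160 CPM (5.97 ± 0.85, adjusted p = 0.000931). In both, liver 1 was the lowest induced liver without overlapping the controls. The cyst-disease genes Bicc1 (8.70 and 11.99 CPM against 510.5, 352 and 502 CPM) and Pkhd1 (21.4 and 17.2 CPM against 173.5, 161 and 313 CPM) were high in all 3 (5.46 ± 0.49, adjusted p = 5.78e-05, and 3.48 ± 0.31, adjusted p = 5.16e-05).

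Several duct cell markers were no higher in liver 1 than in the controls. Epcam, the epithelial adhesion molecule, was at 1.55 and 1.06 CPM in the controls, at 0.953 CPM in liver 1 and at 31.9 and 31.6 CPM in livers 2 and 3 (4.03 ± 1.22, adjusted p = 0.0304), a call lost without control 1 (0.136), control 2 (0.164), liver 2 (0.0596) or liver 3 (0.0654). Krt19, the ductal keratin, was at 5.80 and 9.44 CPM against 2.86, 18.9 and 17.8 CPM and was not called (0.79 ± 0.78, adjusted p = 0.46). Cldn7 (1.35 and 0.424 CPM against 0.635, 15.6 and 10.7 CPM) and Cd24a (7.44 and 13.5 CPM against 9.72, 53.6 and 42.3 CPM) were likewise higher only in livers 2 and 3 and were not called. For these 4 genes liver 1 lay within or below the range of the controls and livers 2 and 3 above it. Other duct genes were above both controls in all 3 livers: Prom1 was at 2.80 and 1.80 CPM against 12.1, 30.5 and 31.3 CPM (3.41 ± 0.60, adjusted p = 0.00202), and Spp1 (osteopontin) at 64.7 and 73.9 CPM against 305, 2737 and 2724 CPM (4.79 ± 0.88, adjusted p = 0.00318).

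Notch signalling directs biliary fate. Of its 17 tested genes, 6 (35.3%) were called higher and none lower (median 1.18), beside 18.1% and 15.7% of all tested genes. Total-count scaling gave 11 higher. The ligand Jag1 rose from 7.44 and 10.2 CPM to 195, 56.0 and 91.7 CPM (3.70 ± 0.62, adjusted p = 0.00199). The receptors Notch1 (44.1 and 48.4 CPM against 87.8, 94.8 and 97.9 CPM, 1.02 ± 0.16, adjusted p = 0.00103) and Notch2 (118 and 114 CPM against 173.5, 223 and 236 CPM, 0.86 ± 0.17, adjusted p = 0.00324) rose by smaller steps. The target Hes1 rose from 7.44 and 7.32 CPM to 28.0, 35.5 and 29.5 CPM (2.07 ± 0.23, adjusted p = 0.000132). Unlike Jag1, the receptors and Hes1 hardly differed between the induced livers. The targets Hey1 and Heyl and the ligands Dll1, Dll4 and Jag2 were not called.

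Fetal and imprinted growth genes gave 11 calls upward and 2 downward of 19 tested, with a median of 1.79 (1.38 with bounds). Without control 1 there were 6 upward and 1 downward. Gpc3 (chromosome X, 52272426 to 52613950), a fetal and tumour proteoglycan, was at 1.35 and 1.17 CPM against 1605, 147 and 284 CPM (9.06 ± 1.23, adjusted p = 0.000756). H19, a maternally expressed imprinted RNA, was at 1.64 and 2.55 CPM against 38.2, 552 and 685 CPM (7.66 ± 1.25, adjusted p = 0.00164), and its neighbour Igf2, a fetal growth factor, at 1.55 and 2.02 CPM against 23.8, 172 and 285 CPM (6.49 ± 1.11, adjusted p = 0.00207). Liver 1 was thus highest for Gpc3 and lowest of the induced livers for H19 and Igf2, and all 3 genes were clear of the controls. The paternally expressed zinc finger gene Peg3 rose from 5.60 and 5.62 CPM to 265, 185 and 388 CPM (5.63 ± 0.70, adjusted p = 0.000393). Noncoding RNA genes of the Dlk1-Meg3 cluster gave both downward calls of the list: Rian fell from 15.8 and 6.58 CPM to 0.889, 0.574 and 0.667 CPM (-3.97 ± 0.53, adjusted p = 0.000521), and Meg3 from 13.8 and 7.21 CPM to 1.97, 3.21 and 2.84 CPM (-1.97 ± 0.41, adjusted p = 0.00497), lost without control 1 (0.0665). The cluster genes Mirg (-1.90 ± 0.85) and Dlk1, at 0 in both controls and at 1.02, 0 and 0.167 CPM in the livers, were not called. Afp, the classical fetal liver protein, overlapped between groups at 3.09 and 5.94 CPM against 8.19, 3.27 and 20.1 CPM (1.22 ± 1.00, adjusted p = 0.375).

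Matrix and cytoskeletal genes were mostly higher. Of 24 extracellular matrix genes, 13 were called higher and none lower (median 1.91), 6 without control 1. Lama5, a basement membrane laminin chain, rose from 3.77 and 6.90 CPM to 146, 148 and 197 CPM (4.94 ± 0.53, adjusted p = 0.000186). The matrix protease gene Mmp14 rose from 18.7 and 14.5 CPM to 61.6, 99.9 and 105 CPM (2.42 ± 0.24, adjusted p = 8.07e-05), and its partner Timp2 from 14.9 and 19.2 CPM to 303, 121 and 165 CPM (3.53 ± 0.36, adjusted p = 0.000106). Fibrillar collagen was highest in liver 2: Col1a1 was at 14.01 and 25.0 CPM against 51.1, 245 and 123 CPM (2.84 ± 0.71, adjusted p = 0.0139), lost without control 1 (0.104) or control 2 (0.055). Of 24 actin cytoskeleton and adhesion genes, 17 were called higher and none lower (median 1.67), 11 without control 1. S100a11 rose from 9.08 and 11.1 CPM to 520, 256 and 325 CPM (5.18 ± 0.43, adjusted p = 3.73e-05), Anxa2 from 6.47 and 7.43 CPM to 103, 88.4 and 102.5 CPM (3.82 ± 0.37, adjusted p = 7.26e-05) and Tagln2, an actin-bundling transgelin, from 12.3 and 10.4 CPM to 112, 176 and 217.5 CPM (3.89 ± 0.38, adjusted p = 8.47e-05). For these 3 genes every induced liver lay far above both controls.

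**Figure D2:**
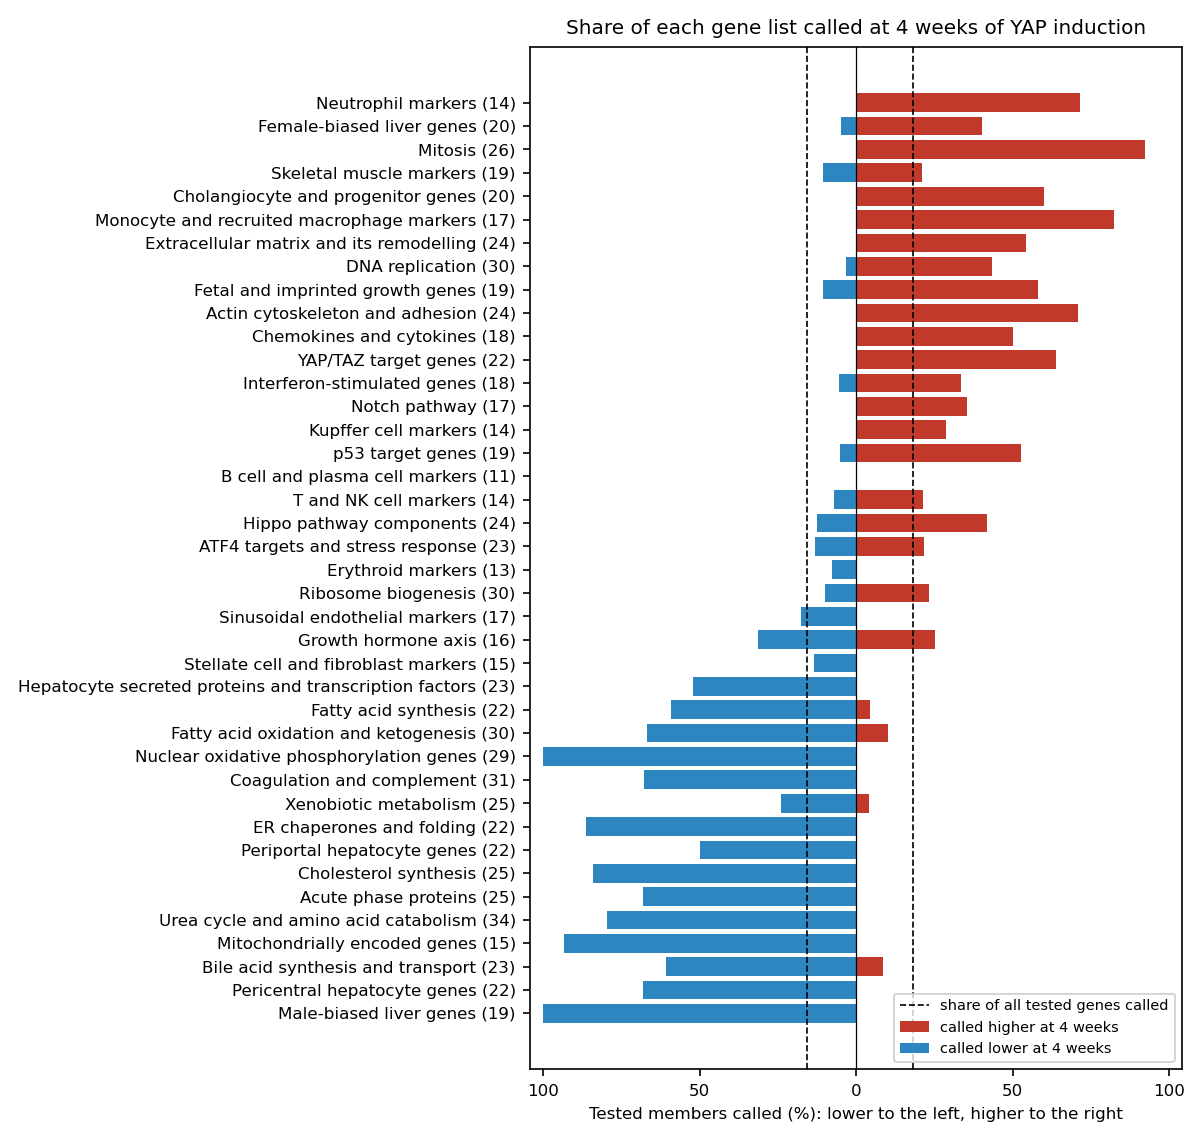
Percentage of the tested members of each gene list (number in brackets) called higher (right, red) or lower (left, blue) at 4 weeks, for the 40 lists with at least 10 tested members, ordered by median log2 fold change; dashed lines mark the shares of all tested genes, 18.1% higher and 15.7% lower. Mitosis, monocyte and neutrophil lists extend farthest to the right, and male-biased, respiratory chain and mitochondrially encoded genes farthest to the left.

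Genes of the mature hepatocyte fell, although albumin itself did not pass. Alb (chromosome 5, 90460897 to 90476602) was at 45606 and 35125 CPM in the controls and at 47397, 19315 and 19269 CPM in livers 1, 2 and 3 (-0.49 ± 0.47, adjusted p = 0.446; 0.20 with total-count scaling), so liver 1 had as much as the controls. Of 23 secreted proteins and transcription factors of hepatocytes, 12 were called lower and none higher (median -0.76). Without control 1 there were 6, without control 2 there were 7, and with total-count scaling 4 were lower and 2 higher. Ttr, the thyroid hormone and retinol carrier, fell from 4340 and 4532 CPM to 758, 1117 and 702 CPM (-2.37 ± 0.30, adjusted p = 0.000267). The transcription factor genes Cebpa (347 and 360 CPM against 140, 173.5 and 122.5 CPM, -1.28 ± 0.21, adjusted p = 0.00115) and Ppara (171 and 112 CPM against 57.8, 55.7 and 52.2 CPM, -1.35 ± 0.24, adjusted p = 0.00162) fell in all 3 livers.

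Genes of hepatocytes around the central vein, where Wnt signalling is active, fell the most of the zonation lists: 15 of 22 were called lower and none higher, with a median of -3.43. Glul (chromosome 1, 153899944 to 153909723), glutamine synthetase, fell from 891 and 1028 CPM to 54.0, 68.5 and 34.1 CPM (-4.20 ± 0.31, adjusted p = 2.62e-05). Slc1a2, a glutamate transporter of the same cells, fell from 245 and 232 CPM to 0.508, 5.56 and 1.95 CPM (-6.47 ± 1.05, adjusted p = 0.002). The Wnt target genes Lgr5 (19.5 and 11.5 CPM against 0.127, 1.43 and 0.278 CPM, -4.63 ± 0.75, adjusted p = 0.0012), Tbx3 (66.9 and 62.5 CPM against 7.37, 15.0 and 9.18 CPM, -2.62 ± 0.47, adjusted p = 0.00258) and Axin2 (13.4 and 12.9 CPM against 2.16, 5.62 and 2.95 CPM, -1.88 ± 0.45, adjusted p = 0.00884) fell too. For these 5 genes liver 2 kept the most and no induced liver reached a control. The endothelial Wnt ligand Wnt2 and the Wnt enhancer Rspo3 were at 2.22 and 1.91 CPM against 0.381, 0.287 and 0.278 CPM and at 11.9 and 7.21 CPM against 2.35, 4.93 and 3.11 CPM. Their calls (adjusted p = 0.0293 and 0.03) were lost when single libraries were left out, Wnt2 without control 1, control 2, liver 2 or liver 3 (0.0711 to 0.111) and Rspo3 without control 1, liver 1 or liver 3 (0.0637 to 0.22).

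Periportal genes fell less: 11 of 22 were called lower and none higher (median -1.39), 6 without control 1, 5 without control 2 and 5 with total-count scaling. Cyp2f2 fell from 1774 and 1757 CPM to 17.3, 30.8 and 19.4 CPM (-6.29 ± 0.77, adjusted p = 0.000399) and Hal, the histidine-degrading enzyme, from 496 and 448 CPM to 37.5, 70.0 and 58.1 CPM (-3.09 ± 0.55, adjusted p = 0.00248). Of 34 urea cycle and amino acid catabolism genes, 27 were called lower and none higher (median -1.76), 16 without control 2. Otc, ornithine transcarbamylase, fell from 512 and 443 CPM to 37.8, 91.5 and 63.3 CPM (-2.89 ± 0.44, adjusted p = 0.000975). Haao of the kynurenine pathway fell from 306 and 296.5 CPM to 64.7, 77.1 and 46.5 CPM (-2.26 ± 0.27, adjusted p = 0.000218) and Cbs, the entry to transsulfuration, from 362.5 and 382 CPM to 98.0, 77.9 and 80.7 CPM (-2.12 ± 0.27, adjusted p = 0.000301). Both were low in all 3 livers.

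Of 23 bile acid genes, 14 were called lower and 2 higher (median -1.84), with 8 lower without control 1, 9 without control 2 and 9 without liver 3. Cyp7a1, the rate-limiting enzyme of the classical pathway, spanned a wide range, at 190.5 and 408 CPM in the controls and 0.254, 126 and 44.4 CPM in the livers, and was not called (-2.39 ± 1.35, adjusted p = 0.202). Cyp7b1 (chromosome 3, 18071950 to 18243338) of the alternative pathway fell from 752.5 and 739.5 CPM to 0.635, 4.59 and 3.62 CPM (-7.97 ± 1.204, adjusted p = 0.00141); it is also male-biased. The export pump gene Abcb11 fell from 737 and 757 CPM to 110.4 ± 58.8 CPM (SD, n = 3), with liver 1 lowest at 57.4 CPM and liver 2 highest at 174 CPM (-2.76 ± 0.40, adjusted p = 0.00066). The 2 genes called higher encode basolateral exporters that carry bile acids back to blood. Abcc4 rose from 5.22 and 4.14 CPM to 26.6, 24.8 and 39.8 CPM (2.70 ± 0.36, adjusted p = 0.000352), and Abcc3 was at 118.5 and 101.4 CPM against 266, 308.5 and 319 CPM (1.44 ± 0.42, adjusted p = 0.0231), lost without control 1 (0.0938), control 2 (0.139) or liver 3 (0.0561).

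Of 25 cholesterol synthesis genes, 21 were called lower and none higher (median -1.49), and 12 with total-count scaling. Msmo1 fell from 213 and 339 CPM to 26.0, 31.8 and 20.1 CPM (-3.41 ± 0.28, adjusted p = 3.73e-05), Cyp51 from 322.5 and 455 CPM to 51.1, 66.3 and 43.9 CPM (-2.85 ± 0.27, adjusted p = 6.18e-05) and Hmgcs1 from 614 and 1015 CPM to 102.6, 88.9 and 58.6 CPM (-3.29 ± 0.33, adjusted p = 8.26e-05). Control 2 exceeded control 1 for each, and liver 3 was the lowest of the induced livers. Of 22 fatty acid synthesis genes, 13 were called lower and 1 higher (median -1.14), 6 lower without control 2 and 6 with total-count scaling. Me1, malic enzyme, fell from 57.6 and 107 CPM to 8.89, 13.02 and 14.2 CPM (-2.77 ± 0.32, adjusted p = 0.000211). The exception Scd2, a desaturase of fetal and extrahepatic tissue, was at 10.3 and 13.1 CPM against 40.5, 39.3 and 40.2 CPM (1.77 ± 0.59, adjusted p = 0.0427), a call lost when any one of the 5 libraries was left out (0.0773 to 0.193).

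All 29 nuclear-encoded respiratory chain genes were called lower (median -1.16), beside 15.7% of all tested genes, and 14 with total-count scaling. In 26.4% of tested genes, and in all 29 of these, the 3 induced livers lay below both controls. Their summed level was 6540 and 6385 CPM in the controls and 3207, 2707 and 2563 CPM in livers 1, 2 and 3. Sdhd fell from 151 and 140 CPM to 58.3, 58.0 and 57.2 CPM (-1.33 ± 0.16, adjusted p = 0.00019). Of 15 mitochondrially encoded genes, 14 were called lower (median -1.81); mt-Nd2 fell from 45859 and 49833 CPM to 8661, 10375 and 6737 CPM (-2.48 ± 0.42, adjusted p = 0.00146). Of 30 fatty acid oxidation and ketogenesis genes, 20 were called lower and 3 higher (median -1.16), with 1 higher without control 1 and 10 lower with total-count scaling. Cpt2, which hands acyl groups to the mitochondrial matrix, fell from 142 and 134 CPM to 34.4, 46.1 and 34.4 CPM (-1.85 ± 0.21, adjusted p = 0.000162), while the acyl-CoA thioesterase gene Acot1 rose from 4.73 and 3.18 CPM to 40.5, 18.7 and 25.1 CPM (2.82 ± 0.52, adjusted p = 0.00258). Of 22 endoplasmic reticulum chaperones, 19 were called lower and none higher (median -1.37), and Dnajb9, Sel1l and Herpud1 were not called. Ero1lb fell from 84.4 and 90.9 CPM to 15.9, 15.9 and 15.2 CPM (-2.48 ± 0.14, adjusted p = 8.1e-06) and Hyou1 from 405 and 411 CPM to 87.2, 65.7 and 88.5 CPM (-2.34 ± 0.21, adjusted p = 4.95e-05).

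Secreted defence proteins were lower as well. Of 25 acute phase genes, 17 were called lower and none higher (median -1.54), 11 without control 2, with total-count scaling giving 11 lower and 3 higher. Serpina3k fell from 8760 and 8557 CPM to 223, 151 and 126 CPM (-5.70 ± 0.80, adjusted p = 0.000714). Serum amyloid A was high in both controls, with Saa1 at 3395 and 5024 CPM, and fell to 1.40, 46.0 and 20.1 CPM (-7.55 ± 1.59, adjusted p = 0.00688). Of 31 coagulation and complement genes, 21 were called lower and none higher (median -1.29), 10 without control 1, 12 without control 2 and 10 with total-count scaling, which also gave 4 higher. F11, coagulation factor XI, fell from 135 and 118 CPM to 0.191, 11.4 and 6.28 CPM (-4.40 ± 0.93, adjusted p = 0.00679), and C6, a subunit of the membrane attack complex, from 508 and 525 CPM to 27.0, 14.8 and 4.17 CPM (-5.08 ± 0.70, adjusted p = 0.000837). Liver 1 was the lowest for F11 and the highest induced liver for C6.

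Genes of sex-biased liver expression need the pattern of the sex chromosomes beside them. Xist, the RNA of the inactive X, was at 3.19 and 0.955 CPM in the controls and at 1891, 2390 and 2361 CPM in the induced livers (10.04 ± 2.48, adjusted p = 0.0139; lost without control 1, 0.08, or control 2, 0.102), and the Y-linked gene Ddx3y at 129 and 124 CPM against 0.0635, 0.115 and 0.278 CPM. All 19 male-biased liver genes were called lower, with a median of -7.97 (-7.37 with bounds). Hsd3b5 (chromosome 3, 98618634 to 98630252), a male-specific steroid reductase, fell from 221 and 196 CPM to 0, 0.229 and 0.0556 CPM (-10.94 ± 0.61, adjusted p = 1.19e-05), and Nudt7, a peroxisomal CoA hydrolase, from 673 and 748 CPM to 12.8, 14.1 and 11.4 CPM (-5.80 ± 0.30, adjusted p = 4.84e-06). Of 20 female-biased genes, 8 were called higher and 1 lower (median 4.19, 3.30 with bounds), 5 higher without either control. Cux2, a female-specific repressor of male genes, rose from 1.16 and 0 CPM to 87.5, 50.8 and 55.1 CPM (6.73 ± 0.71, adjusted p = 0.000175). Fmo2 rose from 6.47 and 7.96 CPM to 166.5, 155.5 and 172 CPM (4.51 ± 0.51, adjusted p = 0.000223). Cyp17a1 fell, from 27.8 and 45.7 CPM to 0.318, 4.24 and 4.45 CPM (-3.60 ± 0.73, adjusted p = 0.00476).

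Of the livers with 2 weeks of induction, the first had a male pattern (Ddx3y at 95.6 CPM), like the controls, and in it all 19 male-biased genes lay below both controls, 15 of them by over 10-fold below the lower control. Hsd3b5 was at 0.425 CPM there and Nudt7 at 15.8 CPM. Of the 20 female-biased genes, 10 lay above both controls in that liver and 7 below both, 3 of these by over 10-fold below the lower control. Cux2 was at 77.4 CPM and Fmo2 at 277 CPM there. These are values of 1 liver with no test, and the part of sex in the 4-week values was not tested. The growth hormone axis, which sets the male pattern, gave 4 calls higher and 5 lower of 16, with none higher and 2 lower without control 1 and 2 of each without control 2. With all libraries the list's shares were 25.0% higher and 31.2% lower, beside 18.1% and 15.7% of all tested genes. Total-count scaling gave 4 higher and 2 lower and moved the list's median from -0.67 to 0.10. Its receptor gene Ghr fell from 848 and 822 CPM to 85.4, 182.5 and 101.2 CPM (-2.76 ± 0.31, adjusted p = 0.000151), and Stat5b was at 102 and 88.8 CPM against 61.6, 57.9 and 60.6 CPM (-0.67 ± 0.15, adjusted p = 0.00551), a call lost without control 1 (0.0662) and turned to 0.07 by total-count scaling.

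**Figure D3:**
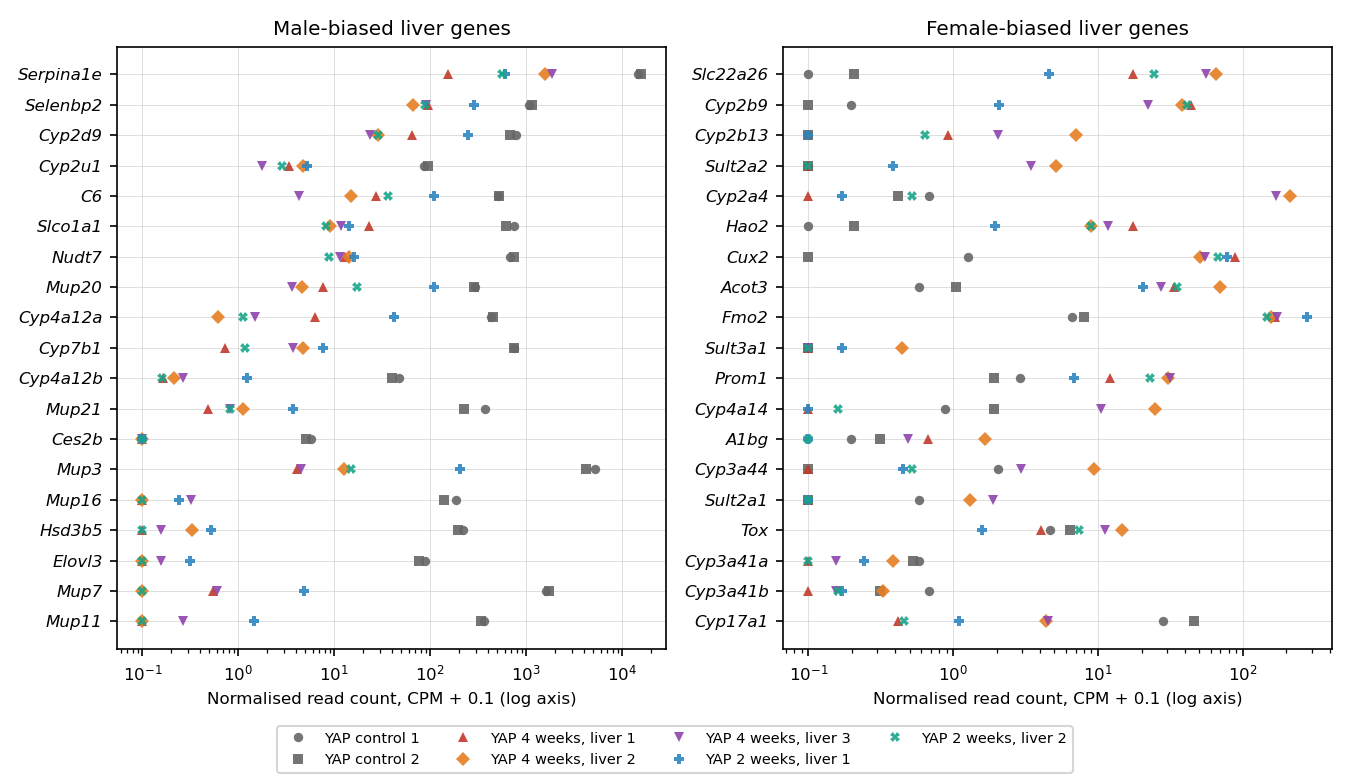
Normalised read counts (CPM + 0.1, log axis) of male-biased (left) and female-biased (right) liver genes in the 2 controls, the 3 livers at 4 weeks and the 2 livers at 2 weeks. All induced livers lie below both controls for every male-biased gene drawn and so does the first 2-week liver, which has the male sex chromosome pattern.

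Among markers of other liver cells, those of monocytes and neutrophils were called higher most often. Of 17 markers of monocytes and recruited macrophages, 14 were called higher and none lower (median 2.16), and their summed level was 131 and 125 CPM in the controls and 487, 485 and 437.5 CPM in the livers. Lyz2 rose from 36.9 and 25.8 CPM to 125.5, 133 and 124.5 CPM (2.02 ± 0.22, adjusted p = 0.000143) and Cx3cr1, a receptor of monocyte-derived cells, from 0.87 and 1.17 CPM to 17.7, 27.4 and 28.9 CPM (4.59 ± 0.58, adjusted p = 0.000299). The resident macrophages of the liver gave a different picture: 4 of 14 Kupffer cell markers were called higher (1 without either control), namely the complement genes C1qa, C1qb and C1qc and Csf1r, which other macrophages also express. Without liver 1 the list had 4 higher and 2 lower, and its median went from 1.09 to -0.27. The Kupffer-restricted Clec4f was at 48.5 and 54.1 CPM against 99.4, 38.6 and 18.1 CPM and was not called (0.02 ± 0.55). Liver 1 was above and livers 2 and 3 below the controls for Clec4f. Of 14 neutrophil markers, 10 were called higher, 3 without either control, 5 without liver 1 and 6 without liver 3. Mmp9 rose from 0.387 and 0.212 CPM to 31.2, 4.70 and 6.95 CPM (5.52 ± 1.02, adjusted p = 0.00289).

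Csf1, the growth factor of macrophages, rose from 14.1 and 17.3 CPM to 188, 89.6 and 137 CPM (3.14 ± 0.39, adjusted p = 0.000296), and Tgfb1 from 11.3 and 14.8 CPM to 37.4, 41.5 and 32.9 CPM (1.52 ± 0.22, adjusted p = 0.00065). They were 2 of 9 chemokine and cytokine genes called higher of 18 tested (median 1.63), 3 without control 1 and 4 without control 2. The monocyte chemokine Ccl2 was at 0.0966 and 1.49 CPM against 1.65, 20.7 and 28.8 CPM (4.44 ± 1.23, adjusted p = 0.0202), lost without control 1 (0.122), with liver 1 close to control 2. Stellate cell and fibroblast markers were not raised: none of 15 was called higher and 2 were called lower (1 without control 1, none without control 2, 1 without liver 1, 4 without liver 2 and none without liver 3), with summed levels of 761 and 855 CPM against 276, 823 and 445 CPM. These levels stand beside the matrix genes above, where Col1a1 was likewise highest in liver 2; their part in that result was not tested. Sinusoidal endothelial markers gave none higher and 3 lower of 17, and 4 higher and none lower with total-count scaling; the lower count was 1 without either control, 7 without liver 1 and none without liver 3. T and NK cell markers gave 3 higher and 1 lower of 14, B cell markers none of 11, erythroid markers 1 lower of 13, mesothelial markers 1 higher of 6, and interferon-stimulated genes 6 higher and 1 lower of 18. Of all tested genes 18.1% were called higher and 15.7% lower. Near the first share were T and NK cell markers (21.4%) and skeletal muscle markers (21.1%). Near the second were endothelial (17.6%) and stellate cell markers (13.3%). Without control 1 or control 2 the higher T and NK cell count was 1, and the higher interferon count was 2 without control 1, 3 without control 2, 9 without liver 1 and 13, with none lower, under total-count scaling. Skeletal muscle markers gave 4 higher (1 without either control) and 2 lower of 19, with summed levels of 208 and 196.5 CPM in the controls and 35.9, 53.6 and 92.7 CPM in livers 1, 2 and 3. Neb alone made up 198 and 180 CPM of the control sums and was at 19.6, 35.3 and 30.1 CPM in the livers.

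The spread between the 3 livers was wider than that between the controls. Of 8711 genes with a mean of at least 10 CPM at 4 weeks, 323 (3.7%) spanned at least 4-fold between the highest and the lowest liver after an offset of 0.5 CPM, beside 11 of 8095 genes (0.1%) between the controls. The median ranges were 1.33-fold and 1.13-fold, and a range over 3 livers is wider than over 2 for the same spread. Liver 1 was the one farthest from the others in 288 of the 323 genes, 108 times as the highest, liver 2 in 25 and liver 3 in 10. The counts of livers 2 and 3 differed by a chi-square of 20.8 per degree of freedom, near the 17 of the controls, and those of liver 1 from livers 2 and 3 by 107 and 87.5.

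Some hepatocyte genes, picked for a wide range with liver 1 lowest, were nearly absent in liver 1 and kept in part in livers 2 and 3. The list of secreted proteins and transcription factors of hepatocytes did not follow this. It summed to 86376 CPM in liver 1 and to 54342 and 51077 CPM in livers 2 and 3. Its median log2 ratios were -0.82, -0.90 and -1.06. Fabp1, the fatty acid carrier of hepatocytes, was at 5644 and 4248 CPM in the controls, 3.56 CPM in liver 1 and 625 and 139 CPM in livers 2 and 3. Cyp3a11, the main inducible drug-metabolising cytochrome, was at 4612 and 2791 CPM against 3.62, 1510 and 728 CPM, and Car3, a carbonic anhydrase, at 3512 and 3554 CPM against 1.65, 314 and 46.9 CPM. Cyp2a5 was at 658 and 545 CPM against 0.127, 421 and 337 CPM. Liver 1 was far below both other induced livers for these 4 genes, and Cyp3a11 (adjusted p = 0.285) and Cyp2a5 (0.657) were not called by edgeR's test. Cyp2a4, a female-biased gene, was at 0.58 and 0.318 CPM in the controls, at 0 in liver 1 and at 212 and 168 CPM in livers 2 and 3. Cyp2a4 and Cyp2a5 are near-identical, so reads may be split between them.

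Another group of genes was highest in liver 1. Fibin was at 0.387 and 0.53 CPM in the controls and 88.4, 0.287 and 4.45 CPM in the livers, and Ogn (osteoglycin) at 2.42 and 2.76 CPM against 76.5, 2.81 and 8.68 CPM. Cd163, a scavenger receptor of resident macrophages, was at 38.7 and 36.8 CPM against 234, 13.5 and 8.84 CPM. Livers 2 and 3 stayed below 10 CPM for Fibin and Ogn and below both controls for Cd163, and none of the 3 genes was called. The 2-week livers were above both controls for these genes too. They were at 20.3 and 15.2 CPM for Fibin, 40.95 and 31.1 CPM for Ogn and 299 and 161 CPM for Cd163. In liver 2 alone Dmbt1 was at the control level: 180 and 296 CPM in the controls, 0, 276 and 0.556 CPM in livers 1, 2 and 3. Liver 3 alone had 2.61 CPM of Gt(ROSA)26Sor, the transcript of the locus that carries the rtTA insertion, where the controls had 19.4 and 17.2 CPM and livers 1 and 2 had 21.2 and 17.2 CPM.

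**Figure D4:**
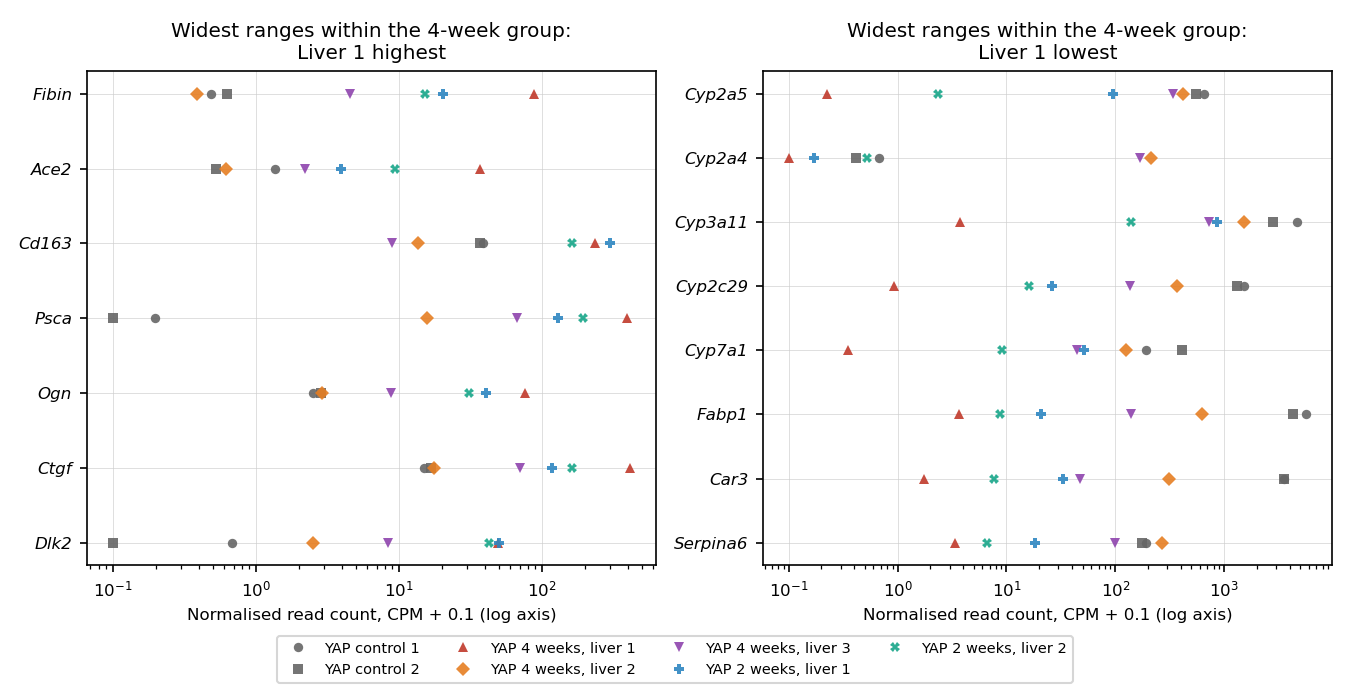
Normalised read counts (CPM + 0.1, log axis) of genes with the widest ranges among the 4-week livers in which liver 1 was highest (left) and lowest (right), with the controls and the 2-week livers beside them. Liver 1 lies apart from livers 2 and 3 in each, and the 2-week livers lie between liver 1 and the other 4-week livers for Fabp1 and Car3.

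Across lists the livers kept a partial order. Liver 1 had the highest summed level of mitosis genes (938 CPM), YAP/TAZ targets (2370 CPM, against 1050 and 1584 CPM in livers 2 and 3 and 417 and 418 CPM in the controls) and Kupffer markers (1848 CPM, against 713 and 585 CPM and 560 and 545 CPM in the controls). Livers 2 and 3 had the higher summed biliary and progenitor level, 4304 and 4691 CPM against 1464 CPM in liver 1 and 610 and 676 CPM in the controls. Spp1 alone made up most of the sums of livers 2 and 3, but not of that of liver 1. The list's median log2 ratios were 0.35 in liver 1, 2.92 in liver 2 and 3.02 in liver 3. Male-biased genes had median log2 ratios of -6.30, -6.18 and -6.79, and respiratory chain genes of -1.02, -1.28 and -1.28, so these lists moved alike in all 3. Xenobiotic metabolism differed, with -3.11 in liver 1 and -0.93 and -1.39 in livers 2 and 3. These are levels of 3 livers without a test between them.

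**Figure D5:**
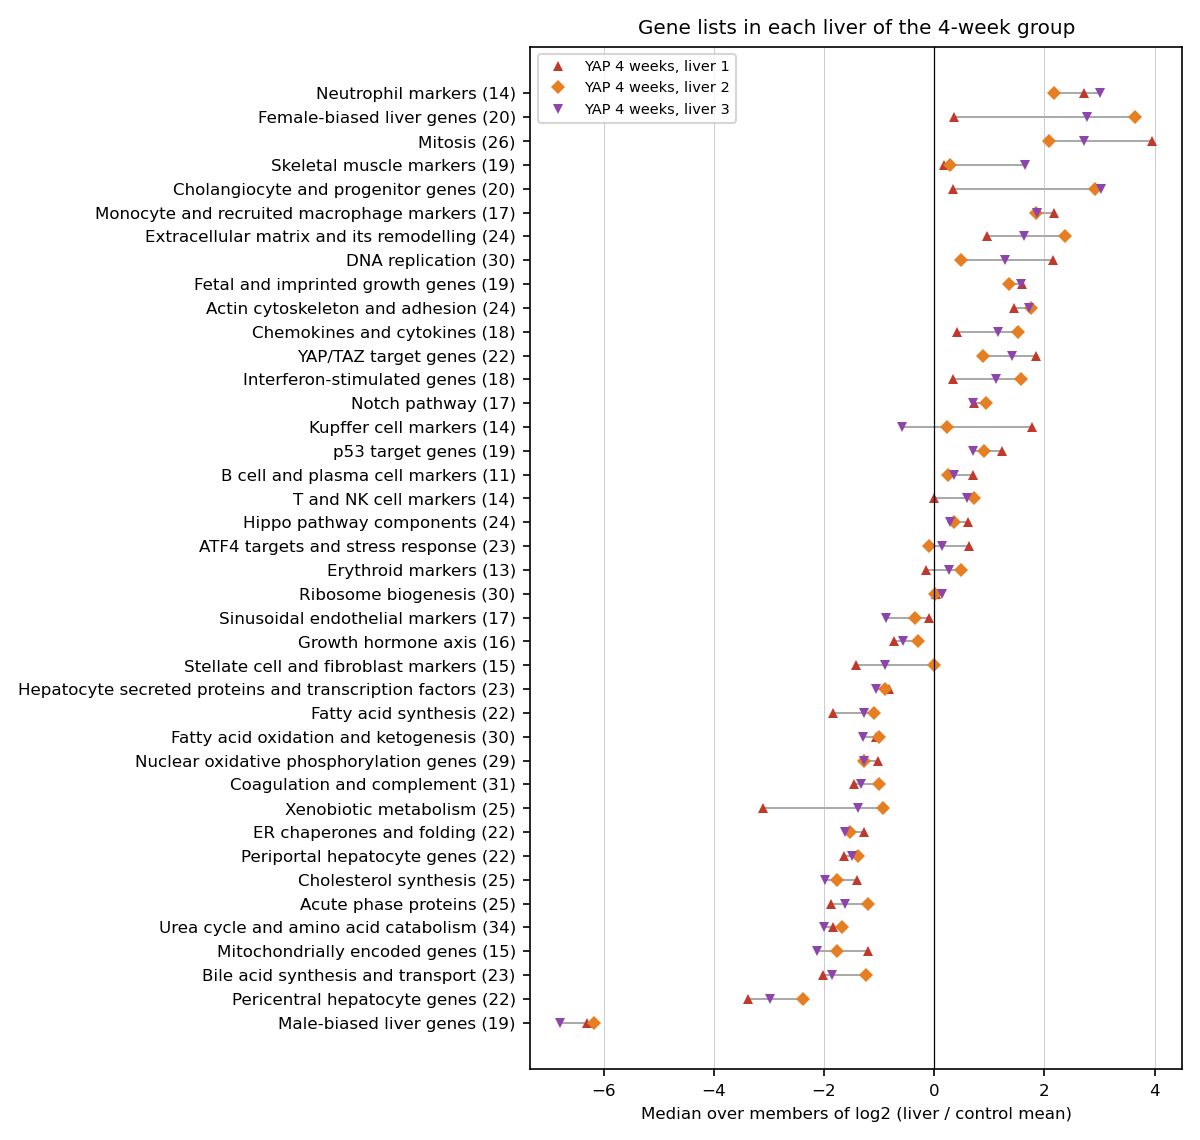
Median over list members of the log2 ratio of each 4-week liver to the mean of the controls (after an offset of 0.5 CPM), 1 symbol per liver, for lists with at least 10 tested members. Livers lie close together for respiratory chain, urea cycle and monocyte genes and far apart for biliary, Kupffer, xenobiotic and female-biased genes.

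Against the 2-week livers, which share the controls with the 4-week livers but were tested directly, 0 of 17964 genes were higher at 4 weeks and 11 (0.0612%) were lower by edgeR's test, with 1250 genes at an unadjusted p under 0.05. Neb was the only gene named above among the 11. The 2-week livers differed in their sex chromosome pattern. The median log2 ratio of sex chromosome genes to the control mean was -0.43 in the first 2-week liver and -5.72 in the second. It was -6.02, -6.03 and -5.44 in livers 1, 2 and 3 at 4 weeks. The part of this difference in the number of calls was not tested. Side by side, Ankrd1 was at 30.6 and 131 CPM in the 2-week livers, Ctgf at 117 and 163 CPM, Ptpn14 at 46.6 and 75.9 CPM and Glul at 102.5 and 57.6 CPM. Each of these lay outside the range of the controls and near or within that of the 4-week livers.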

How the data were processed

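Gene counts were deposited by the authors as a table of whole-number reads per gene symbol. Per the labels' protocols, DNase-treated total RNA went into a Nugen Ovation library kit for mouse. In the submitters' processing notes featureCounts 1.6.3 stands beside HISAT2 2.1.0, Trim Galore 0.4.1 and DESeq2 1.20.0, and the builds given are GRCm38 and mm10. Strand setting, treatment of multi-mapped reads and annotation are not given in the sources used here, so overlapping, antisense and near-identical genes are uncertain.

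Counts were analysed with edgeR 4.0.16 in R 4.3.3 (TMM scaling, filterByExpr, robust glmQLFit, glmQLFTest), with 1 mean per group over all 12 libraries. This left 7 residual degrees of freedom and a common biological coefficient of variation of 31.5%. P-values were adjusted over 17964 genes by Benjamini-Hochberg. The scripts were tested on simulated data. Nothing in the labels says that replicates are separate animals, so p-values measure only the spread between these samples. Symbols matched GENCODE vM21 for 95.3% of 48576 genes, the source of gene coordinates.

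The members and gene lists were chosen with earlier results of these data known. Genes named were the 10 largest rises and falls among called, non-overlapping genes of at least 10 CPM in the higher group, up to 5 members with the smallest p in each list, members called against their list's majority, and 14 fixed genes. Further genes, among them those that differ between livers, were chosen after their values were seen. Alternatives were RLE size factors, total-count scaling, DESeq2 1.42.0, other filters, fewer libraries, a replicate block, no mitochondrially encoded genes, and leaving out each library. A few genes are not reported here by name.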

Additional observations from a re-analysis of the deposited data

Results flagged for a closer look

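For 11 genes the 4-week and 2-week livers differed by edgeR's test of that difference, all of them lower at 4 weeks, and 10 of them encode or serve muscle fibres. Log2 differences were -5.02 for the giant sarcomere gene Ttn, -2.38 for Neb, -5.10 for the calcium pump gene Atp2a1, -9.48 for the myosin gene Myh4, -2.60 for Tpm2, -3.03 for Myom1, -4.77 for Mybpc1, -3.73 for Cmya5, -2.95 for Des, -4.74 for the calcium channel gene Ryr1 and -7.27 for the gene model Gm10499. Adjusted p-values of these edgeR tests lay between 0.0101 and 0.0495. Ttn was at 491 and 528 CPM in the 2-week livers, at 7.56, 6.02 and 33.5 CPM in the 4-week livers and at 1.45 and 1.49 CPM in the controls. Neb had another order, with 198 and 180 CPM in the controls, 152.5 and 143 CPM at 2 weeks and 19.6, 35.3 and 30.1 CPM at 4 weeks.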

How the results depend on the processing

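With total-count scaling 7863 genes were higher, 897 lower and 6723 called with at least a 2-fold change. The log2 fold change then turned positive for Stk3 (0.228), Lats1 (0.253), Cars (0.067), Rrn3 (0.194), Bop1 (0.050), Bysl (0.106), Stat5b (0.066), Acta2 (0.023), Tek (0.058), Yap1 (0.537) and Alb (0.198); the scaling itself moves every gene upward. Leaving out 1 library at a time gave between 3324 and 6231 calls, 1645 to 3304 higher, 1665 to 2927 lower and 2804 to 4423 of at least 2-fold, the lowest each time without a control. In the same runs Lrrn4 ranged from -0.348 to 2.229 and Cfd from -0.761 to 5.370. Without control 2 or liver 3 Lrrn4 was below 0 (-0.348 and -0.047), and Cfd was below 0 without control 2 or liver 1 (-0.761 and -0.382). Of 254 genes named by rule 227 were called, and 167 of these kept the call when any single library was left out, while 60 lost it at least once. RLE size factors, DESeq2, filters, the 5 or 7 YAP libraries alone and leaving out mitochondrially encoded genes kept the total within 1.5 times the 6073 calls and reversed no named gene.

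A fit with a replicate block gave 5058 calls. Same-numbered controls and 4-week livers showed correlations of their deviations from the group mean of 0.022 and 0.014. The deviations of 2 controls mirror each other, so these values cannot show whether a number marks a shared litter, batch or day. With 2 controls, leaving out either one leaves a single control that is assumed to vary like the other groups.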

Other observations

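Genes usually counted among the targets of the stress factor ATF4 were called about as often as all tested genes, and not in 1 direction. Psat1 and Phgdh, enzymes of serine synthesis, rose from 0.387 and 0.743 CPM in controls 1 and 2, the same for both genes, to 19.4, 6.14 and 16.7 CPM and to 9.08, 6.42 and 9.29 CPM in livers 1, 2 and 3 (log2 fold changes 4.63 ± 0.79 and 3.87 ± 0.77, adjusted p = 0.00205 and 0.0038 by edgeR). Aars, the alanyl-tRNA synthetase gene, fell from 333 and 412 CPM to 92.7, 95.7 and 80.1 CPM (-2.06 ± 0.20, adjusted p = 7.82e-05). The mitochondrial serine hydroxymethyltransferase gene Shmt2 fell from 262 and 275 CPM to 73.1, 102.8 and 66.0 CPM (-1.74 ± 0.31, adjusted p = 0.00211). Psph (0.38 ± 0.46) and Wars (-0.12 ± 0.20; 0.62 with total-count scaling), of the same pathways, were not called. Of the 23 genes of this list 5 were higher and 3 lower, beside 18.1% and 15.7% of all tested genes, and the higher count was 2 without control 1, 3 without control 2 and 10 with total-count scaling.

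Ribosome biogenesis genes hardly moved: of 30, 7 were higher and 3 lower with a median log2 fold change of 0.06, and none was called in either direction without control 2. With all libraries the list's shares were 23.3% higher and 10.0% lower, beside 18.1% and 15.7% of all tested genes. Total-count scaling called 20 higher and none lower. Of 25 xenobiotic metabolism genes, 1 (4.0%) was called higher and 6 (24.0%) lower, beside 18.1% and 15.7% of all tested genes, and 18 were not called. Gstp1, a glutathione transferase, fell from 602 and 549 CPM to 66.2, 47.1 and 54.6 CPM (-3.36 ± 0.24, adjusted p = 2.05e-05). Sult1a1, a sulfotransferase, went from 211 and 199 CPM to 2635, 356 and 846 CPM (2.64 ± 0.78, adjusted p = 0.0267), a call lost without control 1 (0.129) or control 2 (0.14). Of the interferon-stimulated genes, Ifit2 rose from 3.48 and 5.84 CPM to 61.6, 35.8 and 34.4 CPM (3.24 ± 0.38, adjusted p = 0.000196).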
